A study of Homo sapiens with 12 samples.

Results

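The hAT-Charlie elements are a family of DNA transposons scattered through the human genome. RNA recovered with V5-tagged ZC3H18 (hereafter Z18) or a V5-tagged control was counted on each annotated copy in A375 cells, an established human melanoma line. A copy was taken as a member when its repeat annotation gave the family hAT-Charlie and the reads lay on the element's own strand. This gave 64680 copies of 75 subfamilies, 4.28% of the 1509971 elements with counts in any of the 12 libraries. The assay was PAR-CLIP, in which cells are fed the photoactivatable nucleoside 4sU, ultraviolet light then joins protein to bound RNA, and an antibody to the V5 tag recovers both. All recovered reads were counted here, without selecting those with the T-to-C changes that mark crosslinks, so background RNA is included. All cells received 1 of 4 V5-tagged constructs by transient transfection, with labelling from 24 h later. Clover, a fluorescent protein, was the control. Z18fl was the full-length protein, Z18trunc the truncated protein, and Z18truncZnFmut the truncated protein with its aromatic zinc finger residues mutated. Each construct had 3 libraries. The labels do not say whether these came from separate cultures, so p-values measure only the spread between these samples. More binding and more RNA in the cell cannot be told apart here, since no input libraries were analysed. The files list repeat elements only, so gene markers of A375 cells were not checked.

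hAT elements moved by a cut-and-paste mechanism, in which a transposase binds inverted repeats at both ends of the element, excises it and inserts it elsewhere. The human copies no longer move. Several Charlie-named subfamilies derive from elements that once encoded a transposase, while most MER-named subfamilies are short copies that kept the ends and depended on a transposase made elsewhere. Copies that lie within genes are transcribed as parts of introns and exons, often in untranslated regions. ZC3H18 is a nuclear zinc finger protein that links capped RNA to the nuclear RNA exosome machinery.

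The ends that define such elements were still legible in some copies. At most 300 bases of each are given from hg38, 5′ to 3′ on the strand of the element. The first 3 are MER5A copies that kept both arms of the inverted repeat, with the repeat letters GGTTCTCAA and their reverse complement TTGAGAACC in capitals. They are shown for the structure of the family, not for their counts, which were low, with means over the 12 libraries of 0.0948 to 0.196 CPM, the counts scaled to aligned fragments.
MER5A between genes, chr3:23989886-23990061, plus strand: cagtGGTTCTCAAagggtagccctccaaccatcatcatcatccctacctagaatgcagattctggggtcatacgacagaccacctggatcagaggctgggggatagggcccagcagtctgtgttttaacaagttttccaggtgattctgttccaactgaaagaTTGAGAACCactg
MER5A in an intron of GARS1, chr7:30633170-30633365, plus strand: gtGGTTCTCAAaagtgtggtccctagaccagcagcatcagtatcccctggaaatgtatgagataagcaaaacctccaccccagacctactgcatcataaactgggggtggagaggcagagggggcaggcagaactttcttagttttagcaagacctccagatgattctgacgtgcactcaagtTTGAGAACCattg
MER5A antisense to SLC35A1, chr6:87504940-87505124, minus strand: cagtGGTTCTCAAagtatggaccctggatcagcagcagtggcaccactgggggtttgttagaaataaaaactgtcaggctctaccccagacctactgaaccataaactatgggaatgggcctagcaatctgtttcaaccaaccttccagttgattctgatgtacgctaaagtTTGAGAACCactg
In each copy the second arm began at base 164 to 184 and left 4 bases to the end of the annotated element. Either 9-letter arm, read on both strands (each is the reverse complement of the other), occurred in 2430 of 46659 listed hAT-Charlie copies of 100 to 300 bases (5.21%). It occurred in 21 of 269 tested copies of that length (7.81%), against 3 of 7815 tested elements of other families (0.0384%). Copies are assigned to families by their sequence, so this contrast describes the annotation and tests nothing. Only 1 tested copy held both arms.

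The next pair of copies separated the full-length from the truncated protein, and runs of at least 6 A or T are in capitals.
Charlie1b in an intron of UPF1, chr19:18858680-18858929, plus strand: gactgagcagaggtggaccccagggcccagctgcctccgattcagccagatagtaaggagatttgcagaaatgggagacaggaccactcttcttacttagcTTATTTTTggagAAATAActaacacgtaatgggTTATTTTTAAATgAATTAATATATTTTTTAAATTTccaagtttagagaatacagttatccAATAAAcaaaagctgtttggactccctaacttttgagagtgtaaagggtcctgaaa
MER20 in an intron of H2BC18, chr1:149811138-149811327, minus strand: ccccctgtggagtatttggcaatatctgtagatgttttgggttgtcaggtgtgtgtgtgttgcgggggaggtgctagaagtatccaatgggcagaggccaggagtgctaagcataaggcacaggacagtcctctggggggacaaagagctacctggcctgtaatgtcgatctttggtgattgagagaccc
The UPF1 copy held 5 such runs, the longest of 22 bases, and 61.6% A or T. The H2BC18 copy held none, at 47.4% A or T. Over all copies tested for this difference, the medians were 47.6% for the 6 higher in Z18trunc and 51.5% for the 15 lower. The 343 copies not called had a median of 51.8%. A link between base composition and construct was not tested.

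The copies were short, old and mostly intronic. Their median length was 180 bases (quartiles 135 and 239), the median divergence from the consensus was 23% and the median A or T content was 59.3%. By GENCODE annotation 31145 lay in introns on the gene's strand, 2313 in exons on the gene's strand, 14339 antisense to a gene and 16883 outside genes. A copy was called exonic when at least 50% of its length lay in exons of any annotated transcript, coding or not. A copy in a noncoding exon can therefore be intronic in another transcript of the gene. Most copies were seen only sparsely. A single library listed 40961 of them, and 684 were listed in all 12.

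Sequencing depth and single libraries have to be kept in mind. Aligned fragments ranged from 16683132 to 17673644 in the Clover libraries and from 21285347 to 25686948 in the others. Clover libraries listed 5208 to 6459 copies, against 8563 to 14274 in the 8 Z18 libraries other than Z18truncZnFmut replicate 3. That replicate listed 34416 copies, and 22138 copies were listed in it alone. Counts of called copies and subfamilies for Z18truncZnFmut against Clover are therefore given with and without it, and values of single copies include it unless stated. Z18trunc replicate 3 listed 14274 copies, against 9929 and 10697 in the other Z18trunc libraries. The counts are of reads, which need not be independent molecules.

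Reads on hAT-Charlie elements made up a larger part of the Z18 libraries than of the control libraries, and outside replicate 3 of Z18truncZnFmut most of the added reads lay in introns. The family total was 1088, 983 and 1003 CPM with Clover and 1344, 1325 and 1353 CPM with Z18fl. It was 1221, 1279 and 1435 CPM with Z18trunc and 1162, 1210 and 2597 CPM with Z18truncZnFmut. Every Z18 library was above every Clover library. Each of the 3 comparisons with Clover gave p = 0.1 in a two-sided exact permutation test, the smallest p that 3 libraries against 3 allow, and an adjusted p of 0.263 over 50 such tests. Intronic copies summed to 476, 433 and 439 CPM with Clover and to 756, 727 and 764 CPM with Z18fl. They summed to 637, 690 and 734 CPM with Z18trunc and to 590, 660 and 1078 CPM with Z18truncZnFmut. Again no Z18 library reached down to Clover (exact permutation p = 0.1 for each). Without replicate 3 the Z18truncZnFmut intronic mean was 625 CPM.

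Exonic copies moved little as a sum. They held 399, 366 and 395 CPM in Clover and 376, 373 and 371 CPM in Z18fl, which overlapped (exact permutation p = 0.4). Z18trunc had 385, 376 and 345 CPM in exons, overlapping Clover as well (exact permutation p = 0.4). Z18truncZnFmut had 363, 323 and 350 CPM, each below every Clover library (exact permutation p = 0.1, adjusted p = 0.263). Introns thus held 43.9% ± 0.18 (SD, n = 3) of hAT-Charlie counts in Clover, 55.9% ± 0.851 in Z18fl and 52.4% ± 1.40 in Z18trunc. The groups did not overlap, and Z18trunc lay below Z18fl (exact permutation p = 0.1 each). In Z18truncZnFmut the intron share was 50.7%, 54.6% and 41.5%, the last in replicate 3 and below Clover.

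Copies antisense to a gene or outside genes were highest in replicate 3 of Z18truncZnFmut, and next highest in replicate 3 of Z18trunc. Antisense copies held 73.6 to 90.25 CPM in Clover and 82.3 to 92.5 CPM in Z18fl. They held 81.7, 89.5 and 156 CPM in Z18trunc and 87.5, 95.4 and 540 CPM in Z18truncZnFmut. Copies outside genes held 629 CPM in replicate 3 of Z18truncZnFmut and 118, 124 and 199 CPM in Z18trunc. The remaining libraries had 95.99 to 133 CPM.

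**Figure D1:**
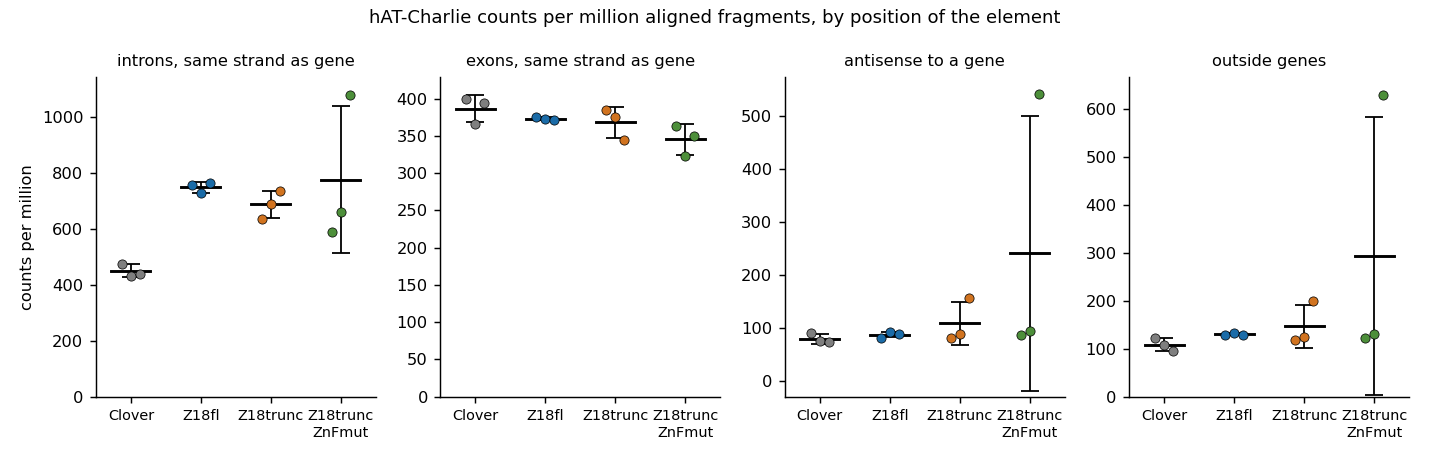
CPM, counts scaled to aligned fragments (vertical axes) on hAT-Charlie copies in introns, in exons, antisense to genes and outside genes, for the 4 constructs (horizontal axes). Points are libraries, the bar is the mean and the whiskers are 1 SD over 3 libraries. Intronic counts sit at 433 to 476 CPM in Clover and at 590 CPM or more in every Z18 library, while exonic counts stay between 323 and 399 CPM.

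Relative to other repeats the family held a like or smaller share. hAT-Charlie held 2.60%, 2.54% and 2.63% of the counts on all elements of the 6 classes in Clover, and 2.60%, 2.68% and 2.46% in Z18fl (exact permutation p = 0.8). Its share was 2.20%, 2.25% and 2.46% in Z18trunc, below every Clover library (exact permutation p = 0.1, adjusted p = 0.263). It was 2.18%, 2.35% and 2.88% in Z18truncZnFmut, where replicate 3 was the highest of all 12 libraries. Among intronic elements alone, the log2 ratio of hAT-Charlie to all other counts was -5.15 ± 0.037 in Clover and -5.16 ± 0.063 in Z18fl (SD, n = 3; exact permutation p = 1). In Z18trunc it was -5.35 ± 0.098, below every library of both (exact permutation p = 0.1 each).

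The other large group of human DNA transposons, TcMar-Tigger, also moved by cut and paste and took up relatively more of the added reads. Clover libraries had a log2 ratio of hAT-Charlie to TcMar-Tigger counts of 0.75 ± 0.035 (SD, n = 3). The ratio was 0.18 ± 0.039 for Z18fl, 0.31 ± 0.017 for Z18trunc and 0.50 ± 0.054 for Z18truncZnFmut. No pair of these groups compared overlapped (exact permutation p = 0.1 for each of 5 comparisons, adjusted p = 0.263). Without replicate 3 the last value was 0.53. Against MIR, an old family of short interspersed elements of like length, the log2 ratio was -1.49 ± 0.053 in Clover and -1.44 ± 0.030 in Z18fl, which overlapped (exact permutation p = 0.3). The Z18trunc ratio to MIR was -1.41 ± 0.0045, above every Clover library (exact permutation p = 0.1).

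Locus by locus, few copies had enough reads to test. Of the 64680 copies 406 passed the low-count filter of edgeR in at least 1 of 5 comparisons, and 64274 were never tested. The 253 copies tested for Z18fl against Clover held 35.2% to 38.2% of the family's counts in Clover and 25.6% to 26.2% in Z18fl. Their summed level was 355 to 384 CPM in Clover and 346 to 348 CPM in Z18fl. The untested copies held 620 to 706 CPM in Clover and 978 to 1007 CPM in Z18fl, so the higher family total lay in copies too sparse to test singly. All fold changes below are log2 differences from edgeR's quasi-likelihood test on rounded expected counts after TMM scaling, called at a Benjamini-Hochberg adjusted p under 0.05. TMM sets the bulk of tested elements to no change. With aligned fragments as library sizes the median of all loci against Clover was 0.37 for Z18fl, 0.31 for Z18trunc and 0.15 for Z18truncZnFmut, in place of 0.01, -0.03 and -0.05 after TMM. "Rose" and "fell" for these fits are therefore relative to all elements.

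In Z18fl against Clover, 28 of 253 tested copies rose, 74 fell and 151 did not pass. Over all 12098 loci tested 52.9% were called, 28.3% higher and 24.6% lower. The median log2 fold change was -0.41 for hAT-Charlie and 0.01 for all loci. With aligned fragments the hAT-Charlie median was -0.05, and 44 copies rose and 38 fell. Position split the copies. Of 79 intronic copies 19 rose and 13 fell, with a median of -0.14, and of 153 exonic copies 7 rose and 56 fell, with a median of -0.57. Among all loci 41.8% of 5324 intronic elements rose and 12.8% fell (median 0.64), and 11.5% of 3584 exonic elements rose and 42.4% fell (median -0.62). Exonic hAT-Charlie copies thus sat near the other exonic elements, and intronic copies below the other intronic elements.

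By part of the exon, the counts of calls were as follows. Of 91 copies in 3′ untranslated regions none rose and 38 fell, with a median of -0.78. No share over all elements was computed by part of the exon. Over all exonic elements 42.4% fell, a share close to that of these copies. None of 15 copies in untranslated parts between coding exons rose and 6 fell, and none of 18 that touch coding sequence rose and 5 fell. The copies in noncoding exons, outside annotated coding transcripts, split evenly, with 6 of 27 up, 6 down and a median of 0.33. The 2 copies in 5′ untranslated regions went 1 up and 1 down.

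For Z18trunc against Clover fewer copies were called. Of 265 copies 10 rose and 54 fell, against 22.5% and 13.4% of 13204 loci (35.9% called), with medians of -0.41 and -0.03. In introns 7 of 80 rose and 8 fell, with a median of -0.12, where 35.4% of all 5792 intronic elements rose and the median was 0.47. In exons 2 of 164 rose and 41 fell, where 4.08% of all 3724 exonic elements rose and 26.6% fell. In 3′ untranslated regions none of 101 rose and 27 fell, a share close to that of all exonic elements. With aligned fragments 20 copies rose and 12 fell, so the balance of calls turned.

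For Z18truncZnFmut against Clover, 2 of 228 copies rose and 20 fell, against 12.3% and 4.83% of 10152 loci (17.1% called). Of the 20 that fell 19 were among the 147 exonic copies tested (12.9%), where 10.7% of all 3284 exonic elements fell. Of these falls 13 were among the 90 tested copies in 3′ untranslated regions. Without replicate 3, 1 of 223 rose and 15 fell, with a median of -0.43 against -0.35 with it. The copy that rose without it was the larger Charlie3 piece in ANP32B (log2 fold change 2.09, edgeR adjusted p = 0.0345).

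**Figure D2:**
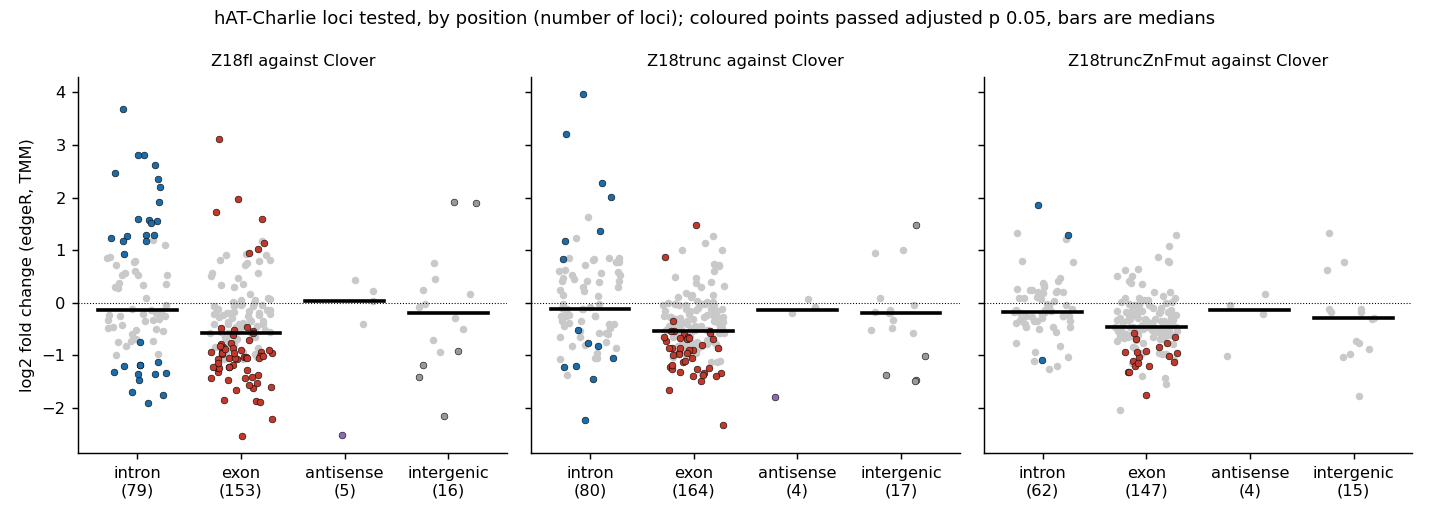
Log2 fold change (vertical axis) of each tested hAT-Charlie copy, by its position relative to genes (horizontal axis, with the number of copies), for the 3 Z18 constructs against Clover. Coloured points passed an adjusted p of 0.05, grey points did not, and bars are medians. For Z18fl the 79 intronic copies centre at -0.14 with a tail of 19 rises up to 3.69, and the 153 exonic copies centre at -0.57.

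The medians of other old families lay close to that of hAT-Charlie, and that of TcMar-Tigger lay above it. For Z18fl against Clover the intronic median was 0.13 over 213 MIR loci and -0.01 over 141 loci of L2, an old long interspersed element, against -0.14 for hAT-Charlie. It was 1.65 over 183 intronic TcMar-Tigger loci, of which 121 rose and 6 fell. In exons the medians were -0.57 for hAT-Charlie, -0.62 for MIR, -0.63 for L2 and -0.33 for TcMar-Tigger. The tested intronic copies also differed in build, with median lengths of 215 bases for hAT-Charlie and 1666 bases for TcMar-Tigger, divergences of 22.7% and 12.9%, and A or T contents of 49.7% and 60.9%. The part of length, age and base composition in the difference was not tested. These are descriptions of each family's own fits, with the same Clover libraries behind them all.

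**Figure D3:**
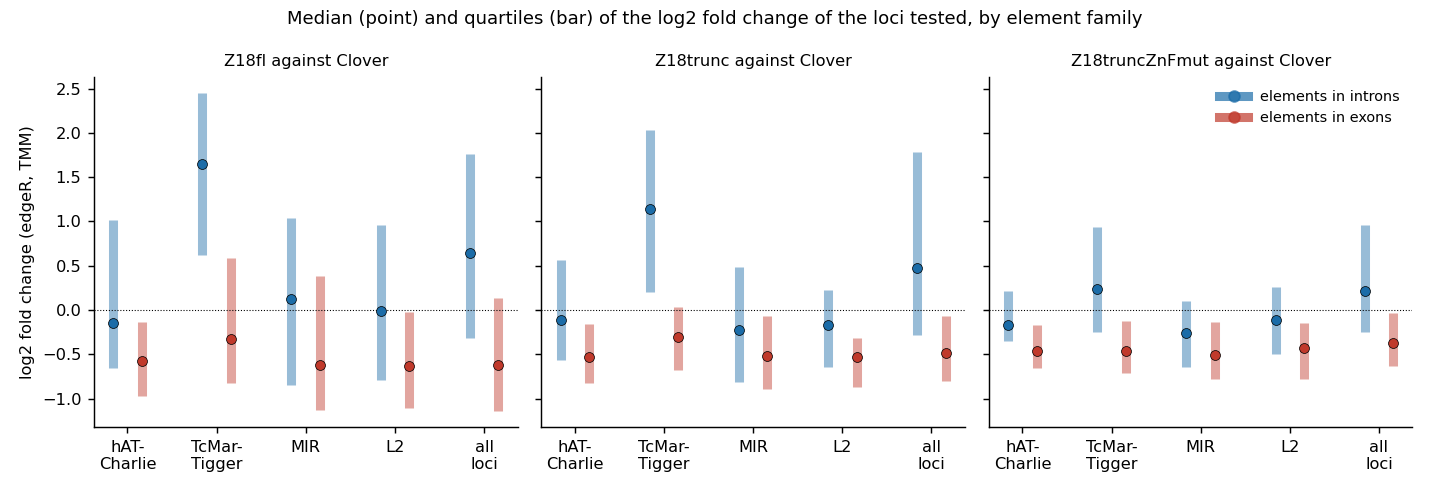
Median (point) and quartiles (bar) of the log2 fold change (vertical axis) over tested loci of 4 families and of all loci (horizontal axis), in introns and in exons, for the 3 Z18 constructs against Clover. For Z18fl the intronic median is -0.14 for hAT-Charlie, 1.65 for TcMar-Tigger and 0.64 for all loci, while the exonic medians lie between -0.63 and -0.33.

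In Z18fl most copies had the sign of their host gene's other elements. In Z18fl against Clover 56 tested intronic copies lay in 50 genes that had other tested intronic elements. The median of these copies was -0.13, that of the host genes' other elements was 0.44, and 45 of the 56 had the sign of their host's median. In exons 75 copies in 68 genes had a median of -0.58 against -0.69 for their hosts, with the same sign in 62. In introns the sign was shared by 44 of 57 copies in Z18trunc and by 24 of 41 in Z18truncZnFmut. Elements of a gene share its transcript, so these are not independent measurements. No share of like signs was computed for unrelated genes. Most exonic elements had negative values in Z18fl whatever their gene, so like signs are frequent there.

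The called copies differed little in base composition, and the order was not the same for both constructs. The median A or T content was 49.4% for the 28 copies that rose in Z18fl, 52.4% for the 74 that fell and 51.8% for the 151 not called. In Z18trunc it was 55.1% for the 10 that rose, 52.2% for the 54 that fell and 51.5% for the 201 not called. Weighted by counts, the A or T content of hAT-Charlie reads was 54.6% ± 0.278 in Clover and 55.1% ± 0.148 in Z18fl, which overlapped (SD, n = 3; exact permutation p = 0.2). In Z18truncZnFmut it was 54.4%, 55.2% and 58.4%, the last in replicate 3.

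Single copies are given as examples. Loci were named by the size of their change among called copies without overlap between groups and with 20 or more counts on average in the higher one, and the 5 most abundant were added. The first rule asked for a mean SQuIRE score of at least 90, the percent of reads touching the element that were assigned to it. Since few copies passed, a second list at 75 was added after the values were seen.

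A pair of Charlie3 stretches in introns of ANP32B, a histone chaperone gene, rose with Z18fl and Z18trunc. The larger, chr9:98007013-98008959, had 0.24, 0.117 and 0.283 CPM with Clover and 1.81, 1.96 and 2.10 CPM with Z18fl. It had 1.35, 1.28 and 1.39 CPM with Z18trunc and 1.32, 0.846 and 0.991 CPM with Z18truncZnFmut. All 9 Z18 libraries were above all Clover libraries. The log2 fold change was 2.80 ± 0.40 (SE) for Z18fl (edgeR adjusted p = 1.9e-05) and 2.28 ± 0.45 for Z18trunc (edgeR adjusted p = 0.00058), and both held under each of 12 alternatives. The smaller stretch, chr9:98005834-98006710, rose by 1.28 in Z18fl and 1.37 in Z18trunc, the latter call lost in 4 of 9 alternatives. It lies just upstream on the same transcript and is not an independent case.

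Other Charlie3 copies moved likewise. In CYTH1, which encodes an exchange factor for ARF GTPases, the copy at chr17:78687081-78689657 had 0, 0.702 and 0.226 CPM in Clover and 1.53, 1.79 and 2.26 CPM in Z18fl. It had 1.85, 1.78 and 1.23 CPM in Z18trunc and 0.662, 1.36 and 0.702 CPM in Z18truncZnFmut. Only the mutant overlapped Clover. The rises were 2.20 ± 0.51 for Z18fl (edgeR adjusted p = 0.0017) and 2 ± 0.54 for Z18trunc (edgeR adjusted p = 0.0065). A copy outside genes, chr22:34607761-34609373, rose in Z18fl by 1.89 ± 0.50 (edgeR adjusted p = 0.0039). A pair of Charlie3 copies in an exon of C11orf58, named after the values were seen, rose by 1.13 ± 0.30 and 0.94 ± 0.34 in Z18fl (edgeR adjusted p = 0.0046 and 0.025). A copy in an intron of COMMD1, chr2:62054883-62057277, was called for Z18truncZnFmut at 1.86 ± 0.62 (edgeR adjusted p = 0.039), lost that call in 5 of 8 alternatives, and had 1.64 for Z18trunc, which did not pass.

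The MER1A copy in DNAAF5, a gene for dynein arm assembly, was called higher with all 3 Z18 constructs. It had 0.659, 0.351 and 0.566 CPM with Clover and 1.73, 1.57 and 1.28 CPM with Z18fl. It had 1.89, 1.36 and 1.31 CPM with Z18trunc and 1.90, 1.03 and 1.53 CPM with Z18truncZnFmut. No Z18 library reached the Clover range. The log2 fold changes were 1.17 ± 0.36, 1.18 ± 0.36 and 1.29 ± 0.40 in that order (edgeR adjusted p = 0.010, 0.015 and 0.026). Those of Z18trunc and Z18truncZnFmut lost their calls in 2 and 7 of 12 alternatives. Of the 5 other tested elements of DNAAF5 2 rose and 0 fell in Z18fl, with a median of 0.76. In Z18trunc 1 of 5 rose, and in Z18truncZnFmut 0 of 3 did.

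The highest fold was at a Charlie9 copy in an intron of SMARCA4, which encodes an ATPase of the BAF chromatin remodelling complex. The copy, chr19:11046239-11046539, had 0.0599, 0 and 0.0566 CPM in Clover, 0.777, 0.654 and 0.740 CPM in Z18fl, and 0.883, 0.620 and 1.10 CPM in Z18trunc. Z18truncZnFmut had 0.455, 0.329 and 0.743 CPM. The rises were 3.69 ± 0.71 for Z18fl and 3.97 ± 0.74 for Z18trunc (edgeR adjusted p = 0.00034 and 0.00031), with Clover near 0 and the fold correspondingly loose. The other 14 tested intronic elements of SMARCA4 ranged from -1.58 to 2.14 for Z18fl, with a median of 0.60. This copy lay above them, but it was picked for its high fold change, so that ranking is no test of a difference from its gene.

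A further 3 intronic copies rose in Z18fl. A Charlie17a copy in GOLGA4, a golgin gene, at chr3:37275277-37275480, went from 0.24, 0.0585 and 0.0566 CPM to 0.950, 0.872 and 1.05 CPM (2.62 ± 0.55, edgeR adjusted p = 0.0007). A Charlie4z copy in TRPC4AP, chr20:35005248-35005371, went from 0.36, 0 and 0 CPM to 1.21, 0.741 and 0.623 CPM (2.46 ± 0.72, edgeR adjusted p = 0.0080). With 2 Clover libraries at 0 this fold change is loose. It ranged from 1.83 to 7.08 as libraries were left out in turn, and the call was lost without Clover replicate 3 (1.83). Of the 4 other tested elements of TRPC4AP 3 rose and 0 fell in Z18fl. A MER5A copy in the pseudogene GOLGA2P11, chr15:62257343-62257450, rose by 2.81 ± 0.60 (edgeR adjusted p = 0.00079). That gene has near-identical relatives that could share its reads, so its value is uncertain. At these 3 copies the other constructs fell under the count filter and were not tested against Clover. The GOLGA4 copy had 0.496 to 0.718 CPM in Z18trunc, also above every Clover library.

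Of the 7 exonic copies that rose in Z18fl, among 153 tested, 6 lay in noncoding exons. In such exons 6 of the 27 tested copies fell as well. Over all exonic elements 11.5% rose, and no share by exon part was computed for them. A MER5A copy in NSMCE4A, a gene for a subunit of an SMC complex in DNA repair, at chr10:121974358-121974506, had 0, 0.117 and 0.226 CPM in Clover and 1.68, 1.18 and 1.21 CPM in Z18fl. It had 0.336, 0.455 and 0.380 CPM in Z18trunc. The rise was 3.12 ± 0.57 (edgeR adjusted p = 0.00022), and Z18trunc was lower than Z18fl by a log2 fold change of -1.86 ± 0.33 (edgeR adjusted p = 0.0020). A MER5B copy in CYTH2, chr19:48475656-48475822, rose by 1.02 ± 0.39 in Z18fl (edgeR adjusted p = 0.035) and lost that call in 5 of 12 alternatives.

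Of the 74 falls in Z18fl 38 lay in 3′ untranslated regions, among 91 copies tested there. That share is close to the 42.4% of all exonic elements that fell. Among the 38 was a MER117 copy in the 3′ untranslated region of OAS3, an antiviral oligoadenylate synthetase gene, at chr12:112970411-112970588. It had 21.0, 20.2 and 20.1 CPM with Clover and 8.34, 8.76 and 9.62 CPM with Z18fl. It had 16.9, 18.1 and 14.8 CPM with Z18trunc and 14.2, 15.5 and 9.79 CPM with Z18truncZnFmut. All Z18 libraries were below all Clover libraries, and Z18fl was the lowest group. The log2 fold changes against Clover were -1.56 ± 0.12, -0.65 ± 0.12 and -0.83 ± 0.17 (edgeR adjusted p = 3.3e-08, 0.00031 and 0.0009). A MER5B copy in the 3′ untranslated region of CD96, a receptor of T and natural killer cells, at chr3:111651070-111651167, went from 2.04, 1.81 and 1.47 CPM to 0.302, 0.567 and 0.584 CPM in Z18fl (-2.21 ± 0.34, edgeR adjusted p = 4.3e-05). In Z18trunc it had 1.22, 1.16 and 1.35 CPM (-0.85 ± 0.28, edgeR adjusted p = 0.021), a call lost in 7 of 12 alternatives. The 3 other tested elements of CD96 all fell in Z18fl too. A Charlie30a copy in an untranslated part of SETD7, a lysine methyltransferase gene, fell in Z18fl by 1.66 (edgeR adjusted p = 5.9e-05).

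A pair of MER5A copies fell with every construct. In EMP2, a membrane protein gene, the copy at chr16:10532095-10532204 had 2.70, 1.75 and 1.98 CPM in Clover and 0.864, 0.436 and 0.934 CPM in Z18fl. Z18trunc had 1.18, 1.32 and 0.887 CPM, and Z18truncZnFmut had 1.12, 1.41 and 0.661 CPM, all below Clover. The log2 fold changes were -1.87 ± 0.31, -1.26 ± 0.28 and -1.21 ± 0.33 (edgeR adjusted p = 8.7e-05, 0.0014 and 0.010), the last lost in 4 of 12 alternatives. The 2 other tested elements of EMP2 also fell in Z18fl. In NRIP1, a nuclear receptor corepressor gene, the copy at chr21:14963617-14963778 gave -1.63 ± 0.26, -1.39 ± 0.29 and -1.03 ± 0.27 (edgeR adjusted p = 5.7e-05, 0.0008 and 0.0085). A MER20 copy in RBMS2, an RNA-binding protein gene, at chr12:56590325-56590534, gave -0.97, -1.27 and -0.94, all called. Each of these 3 copies lies in a 3′ untranslated region.

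Of the 2 MER5B copies in the 3′ untranslated region of EGFR, the epidermal growth factor receptor gene, 1 fell with all 3 constructs and the other did not pass with Z18fl. The latter copy, at chr7:55210375-55210539, had 4.08, 4.33 and 4.24 CPM in Clover and 4.84, 5.54 and 5.41 CPM in Z18fl, each above Clover, but the TMM-scaled log2 fold change was -0.04 ± 0.17 and did not pass. It had 2.94, 3.26 and 2.62 CPM in Z18trunc and 3.39, 1.46 and 2.85 CPM in Z18truncZnFmut, all below Clover, with log2 fold changes of -0.87 ± 0.19 and -0.92 ± 0.24 (edgeR adjusted p = 0.0012 and 0.0084). The neighbouring copy at chr7:55209100-55209210 gave -0.57, -0.96 and -1.32 for the 3 constructs, all called. A Charlie8 copy in the 3′ untranslated region of TGFBR2, a transforming growth factor beta receptor gene, gave -0.40, which did not pass, then -0.80 and -1.02, which did. Less firm falls were those of a MER33 copy in PANK3 in Z18fl (-0.87) and a MER5A copy in CYFIP2 in Z18truncZnFmut (-1.32), lost in 5 and 8 of 12 alternatives. Among the most abundant copies with a high score, Charlie1 in CIAO1 fell in Z18fl (-0.97), and MER5A in PML passed with no construct. The 5 other tested elements of CIAO1 fell in Z18fl as well.

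A few falls lay outside exons. A MER5B copy in an intron of HSBP1, chr16:83785703-83785840, had 1.62, 2.16 and 1.53 CPM in Clover, 1.04, 0.785 and 0.856 CPM in Z18fl and 0.757, 0.744 and 0.972 CPM in Z18trunc (-1.35 ± 0.30 and -1.44 ± 0.31, edgeR adjusted p = 0.0010 and 0.0011). Both groups were below Clover in every library. Of the 2 other tested elements of HSBP1 1 rose and 0 fell in Z18fl, and in Z18trunc 1 of 3 fell. A MER58B copy outside genes, chr6:41934088-41934290, had 1.14, 1.17 and 1.19 CPM in Clover and 0.561, 0.697 and 0.701 CPM in Z18fl (-1.19 ± 0.33, edgeR adjusted p = 0.0061). It fell by 1.37 in Z18trunc as well (edgeR adjusted p = 0.0093).

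**Figure D4:**
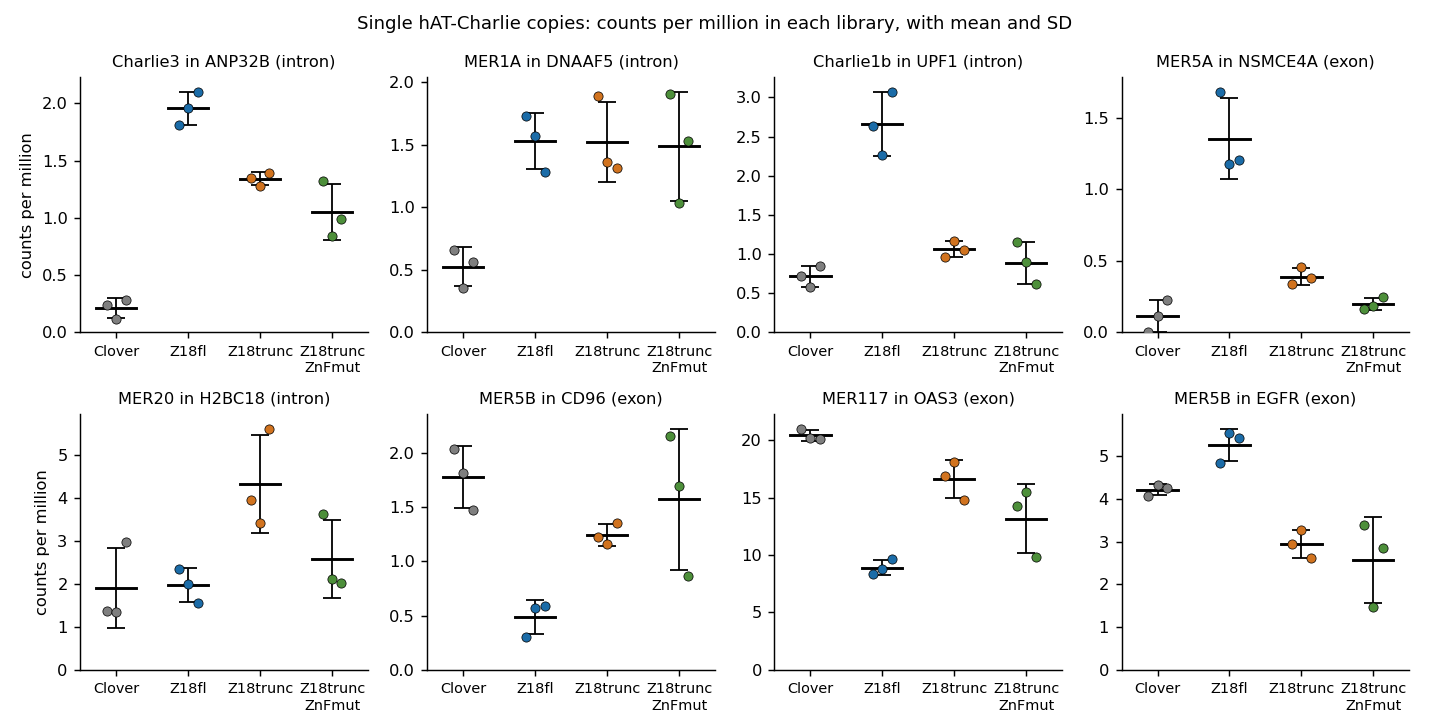
CPM, counts scaled to aligned fragments (vertical axes) at 8 hAT-Charlie copies for the 4 constructs (horizontal axes). Points are libraries, bars are means and whiskers are the SD over 3 libraries. The Charlie3 copy in ANP32B and the MER1A copy in DNAAF5 lie above Clover with every construct. The copies in UPF1 and NSMCE4A are highest in Z18fl, and the OAS3 and CD96 copies are lowest in Z18fl.

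The direct comparison of Z18trunc with Z18fl asks what the truncation changes. Of 364 tested copies 6 were higher in Z18trunc and 15 lower, against 2.62% and 3.13% of 19413 loci (5.74% called), with medians of -0.12 and 0.01. The share of copies called in either direction was thus close to that over all loci. The Charlie1b copy in UPF1, which encodes the central helicase of nonsense-mediated decay, had 0.719, 0.585 and 0.849 CPM with Clover and 2.63, 2.27 and 3.08 CPM with Z18fl. It had 0.967 to 1.16 CPM with Z18trunc and 1.16, 0.893 and 0.619 CPM with Z18truncZnFmut. Z18fl stood above all 9 other libraries. It rose by 1.51 ± 0.28 over Clover (edgeR adjusted p = 0.00025), and Z18trunc was lower than Z18fl by a log2 fold change of -1.40 ± 0.23 (edgeR adjusted p = 0.00088), a call kept in 12 of 12 alternatives. Z18trunc against Clover gave 0.21 ± 0.36, which did not pass. The 3 other tested intronic elements of UPF1 gave 1.17 to 1.39 for Z18fl against Clover. For Z18trunc against Z18fl the 5 others tested had a median of -0.82 and ranged from -1.24 to 1.01, and 2 were called lower. A MER58A copy in an exon of SIN3B, a corepressor gene, at chr19:16862975-16863188, was lower in Z18trunc by -1.66 ± 0.34 (edgeR adjusted p = 0.0055). The EGFR copy described above that did not fall in Z18fl was lower in Z18trunc by -0.92 ± 0.18 (edgeR adjusted p = 0.0031).

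All 6 copies higher in Z18trunc than in Z18fl can be named, a choice made after the values were seen. The MER20 copy in an intron of H2BC18, a histone H2B gene, had 1.38, 1.34 and 2.98 CPM with Clover and 1.56 to 2.35 CPM with Z18fl. It had 3.95, 3.43 and 5.62 CPM with Z18trunc and 3.64, 2.11 and 2.02 CPM with Z18truncZnFmut. Z18trunc was above Z18fl by 1.07 ± 0.23 (edgeR adjusted p = 0.0091) in every library, a call kept in 12 of 12 alternatives. The others were the copies in OAS3 (0.82 ± 0.13, edgeR adjusted p = 0.00084) and CD96 (1.27 ± 0.33, edgeR adjusted p = 0.026), where Z18fl had fallen further. The CD96 call was lost in 6 of 12 alternatives. A MER5B copy in the 3′ untranslated region of DUSP4, a MAP kinase phosphatase gene, gave 0.61 ± 0.14 (edgeR adjusted p = 0.015). There too Z18fl had fallen further against Clover, by -1.05 ± 0.14 (edgeR adjusted p = 1.0e-05). Z18trunc had fallen by -0.35 ± 0.13 (edgeR adjusted p = 0.035). A MER1B copy in an intron of KIAA0319L gave 2.11 ± 0.62 (edgeR adjusted p = 0.045), a call lost with DESeq2, under the replicate block and without the low-count filter. The sixth, a MER20 copy in H3-7, had 3.31, 0.138 and 3.41 CPM in Z18trunc, overlapped Z18fl, and had unique reads for 2.85% of its counts only. It is uncertain.

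Mutating the zinc finger of the truncated protein changed no copy past the threshold. For Z18truncZnFmut against Z18trunc, 0 of 296 copies rose and 0 fell, against 0.368% and 0.351% of 16833 loci (0.719% called). At an unadjusted p under 0.05, 18 were higher and 11 lower, and DESeq2 called 0 in either direction. Without replicate 3, 0 of 391 rose and 1 fell, the H3-7 copy (-4.50, edgeR adjusted p = 0.0241). On simulated data of this comparison edgeR recovered 16% of 2-fold and 64% of 4-fold changes among 16833 loci, so a change of 2-fold would often have been missed.

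Summed by subfamily, counts were deep enough to test nearly all of the family. MER5 copies held 26.2% of hAT-Charlie counts, MER20 copies 13.4%, MER1 copies 9.22%, MER58 copies 8.54%, and the 40 Charlie-named subfamilies 23.9%. The level of each of 9 such groups was higher in Z18fl than in Clover relative to aligned fragments, by a log2 ratio of 0.23 (MER1) to 0.98 (MER30). In the edgeR fit for Z18fl against Clover, 9 of 71 subfamilies rose and 9 fell, against 20.1% each way over 915 subfamilies of all elements (40.2% called). With aligned fragments 47 rose and 1 fell. For Z18trunc 4 rose and 7 fell, against 14.5% and 11.9% of 925 (26.4% called), and with aligned fragments 31 rose and 0 fell.

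Charlie3 stood out. Its 167 listed copies were long (median 756 bases) and close to their consensus (median divergence 10.3%). Its level was 5.04, 4.85 and 5.94 CPM with Clover and 14.4, 15.4 and 16.5 CPM with Z18fl. It was 11.1 to 14.97 CPM with Z18trunc and 10.2, 9.44 and 15.6 CPM with Z18truncZnFmut. Every Z18 library exceeded every Clover library. The log2 fold change was 1.07 ± 0.12 for Z18fl (edgeR adjusted p = 2.7e-06) and 0.83 ± 0.18 for Z18trunc (edgeR adjusted p = 0.0021), and both calls held in 12 of 12 alternatives. Z18truncZnFmut gave 0.31 ± 0.25, which did not pass, and without replicate 3 it passed at 0.56 (edgeR adjusted p = 0.0134).

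The other subfamilies that rose in Z18fl were Charlie13a (0.82 ± 0.25), Cheshire (0.66 ± 0.16), Charlie25 (0.60 ± 0.19), Charlie1b (0.58 ± 0.11), MER30 (0.47 ± 0.10), MER112 (0.45 ± 0.12), MER58C (0.27 ± 0.09) and MER3 (0.25 ± 0.07). Of these Cheshire, MER30 and MER112 also rose in Z18trunc. MER30, a short young subfamily with a median divergence of 11%, had 7.31, 7.26 and 6.67 CPM in Clover, 13.8, 12.6 and 14.5 CPM in Z18fl and 11.4, 14.8 and 16.2 CPM in Z18trunc. Cheshire had 2.47, 2.84 and 3.11 CPM in Clover, 6.23, 5.83 and 6.34 CPM in Z18fl and 5.23, 5.52 and 7.01 CPM in Z18trunc. Neither overlapped Clover with those constructs. Charlie25 and MER112 are less firm, since Charlie25 in Z18fl lost its call in 5 of 12 alternatives and Cheshire and MER112 in Z18trunc in 6 and 9 of 12.

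Among the falls, Charlie30a had 8.33, 6.72 and 7.36 CPM in Clover, 4.94, 5.54 and 5.45 CPM in Z18fl and 6.65, 6.03 and 6.21 CPM in Z18trunc. All of these Z18 libraries were below all Clover libraries. Its log2 fold change was -0.96 ± 0.12 for Z18fl (edgeR adjusted p = 9.3e-06) and -0.73 ± 0.15 for Z18trunc (edgeR adjusted p = 0.0015). Charlie6 fell by 0.77 and Charlie21a by 0.86 in Z18fl. MER117, the subfamily of the OAS3 copy, gave -0.63 in Z18fl and -0.43 in Z18trunc, where its CPM of 32.3, 33.0 and 34.7 overlapped 34.3, 32.1 and 29.6 CPM in Clover. Charlie14a and MER106A also fell in Z18fl, and Charlie8 in Z18trunc.

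The falls of the largest subfamilies were relative ones. MER5A had 159, 149 and 154 CPM in Clover and 177, 176 and 182 CPM in Z18fl, MER5B went from 93.1, 89.8 and 90.9 to 108, 101 and 105 CPM, and MER1B from 63.3, 59.6 and 60.1 to 71.3, 69.7 and 71.7 CPM. All were higher in every Z18fl library per aligned fragment, yet edgeR called them lower after TMM scaling, at -0.26, -0.27 and -0.25. They gained less than elements as a whole. With aligned fragments MER5B gave 0.20. MER20 and MER58A, the remaining subfamilies of the 5 with most counts, gave -0.09 and -0.02 in Z18fl and did not pass.

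The falling subfamilies lay more in exons. Exons held 23.5% to 84.9% of the counts of the 9 subfamilies that fell in Z18fl (median 50.8%) and 1.80% to 33.4% for the 9 that rose (median 11.8%), against a median of 21.7% over all. Across the 71 subfamilies the log2 fold change correlated with the exon share at Pearson's r = -0.55 and Spearman's rho = -0.45 for Z18fl, and at -0.48 and -0.46 for Z18trunc. It was -0.72 by both measures across 70 subfamilies for Z18truncZnFmut. The correlation with median A or T content was 0.11, 0.10 and 0.34. The exon share was taken from the same counts as the fold changes. Reads added in introns therefore lower the share and raise the fold change together, which builds in part of these correlations. Subfamilies also share libraries, scaling and host genes, so these values describe and do not test. Charlie3 was the exception, with the largest rise and 33.4% of its counts in exons.

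**Figure D5:**
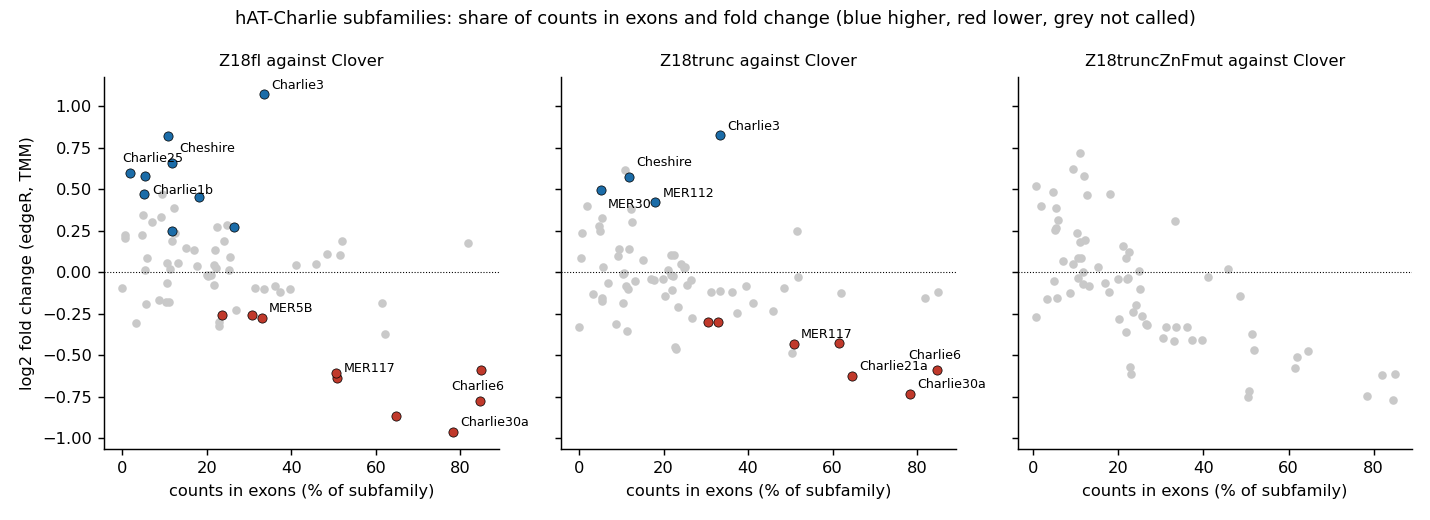
Log2 fold change of hAT-Charlie subfamilies (vertical axis) against the percent of their counts in exons over the 12 libraries (horizontal axis), for the 3 Z18 constructs against Clover. Blue points rose, red points fell and grey points did not pass. The subfamilies that fell in Z18fl lie at 23.5% or more in exons, and Charlie3 is the highest point for Z18fl and Z18trunc.

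With all libraries, the remaining subfamily comparisons gave almost no calls. For Z18truncZnFmut against Clover, 0 of 70 rose and 0 fell, against 1.3% and 0% of 921. At an unadjusted p under 0.05, 3 were higher and 9 lower, and DESeq2 called 2 lower, Charlie6 and MER106A. Without replicate 3, Charlie3 rose and 4 fell, namely Charlie30a, Charlie6, Charlie8 and MER117. For Z18trunc against Z18fl, 0 of 73 rose and 1 fell, against 1.48% and 2.43% of 948 (3.9% called). This was MER58C (-0.35, edgeR adjusted p = 0.0415). No hAT-Charlie subfamily was called lower with DESeq2, aligned fragments, no count filter, unique reads or the replicate block. With both strands summed 1 was called lower. Without Z18trunc replicate 3, 1 rose and 5 fell, where 88 of 957 subfamilies of all elements rose and 46 fell. For Z18truncZnFmut against Z18trunc, 0 of 73 rose and 0 fell, against 0% and 0% of 957, with 1 each way at an unadjusted p under 0.05 and 0 by DESeq2.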

How the data were processed

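Anti-V5 PAR-CLIP libraries of A375 cells were ribo-depleted and stranded. The authors trimmed reads with cutadapt 4.6 and ran SQuIRE on hg38, 1 file per library. The SQuIRE version is not given in the sources used here. The deposited totals are expected counts, unique reads plus a share of multimapping reads by expectation maximization. The deposited unique reads and aligned fragments are counts, and the deposited score gives the total as percent of the reads that touch the element at all. The authors' FPKM values were not used. CPM was computed here from expected counts and aligned fragments.

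Groups came from the sample titles. Expected counts on the element's strand were rounded, and all elements of the LTR, LINE, SINE, DNA, RC and Retroposon classes were tested with edgeR 4.0.16 (R 4.3.3; filterByExpr, minimum count 10, minimum total 15) on the 6 libraries of each comparison, for loci and subfamily sums. Alternatives were DESeq2 1.42.0, aligned fragments as library sizes, no count filter, both strands, unique reads, a replicate block and each library left out. Single values per library went through exact two-sided permutation tests, 50 in 1 family, 10 of them (intron and exon CPM) added after the data were seen. Positions came from GENCODE release 44, and coordinates count from 1. Other steps used pandas 2.3.3, numpy 2.4.6, pysam 0.24.0 and scipy 1.17.1 under Python 3.11.15.

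Named loci were the 6 highest and 4 lowest eligible ones for each comparison with Clover, 3 each way for the direct comparisons, and the 5 most abundant. Named subfamilies were the 4 highest and 4 lowest called ones with at least 100 mean counts and the 5 with most counts. Every other feature named was chosen after its values were seen. The members and lists were chosen with earlier results of these data known. Counts of replicate libraries differed by more than sampling noise (chi-square per degree of freedom 1.66 to 3.20). On simulated data with 200 changed features edgeR recovered 50% of changed loci for Z18fl against Clover (12098 loci) and 93% of changed subfamilies (915).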

Additional observations from a re-analysis of the deposited data

Results flagged for a closer look

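Reads on the strand opposite to hAT-Charlie elements were not part of the comparisons above. They were also more abundant with each Z18 construct than in any Clover library. The antisense total was 1059, 933 and 925 CPM in Clover. Its mean was 1283 CPM in Z18fl, from 1282, 1274 and 1292 CPM. It was 1253 CPM in Z18trunc, from 1159, 1218 and 1382 CPM, and 1620 CPM in Z18truncZnFmut, from 1095, 1213 and 2553 CPM. The share of family counts on the element's own strand stayed near even, with group means of 50.6% to 51.3%.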

How the results depend on the processing

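Depth limited the analysis, since 64274 of 64680 copies were never tested singly, and calls at single loci moved with the processing. Of 53 named calls 20 held in every alternative run for them, and 101 of 617 alternatives lost a call. The cause of each change below was not tested unless its construction shows it. Results for Z18truncZnFmut rest partly on replicate 3.

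With aligned fragments as library sizes, which remove the TMM centring, 44 loci rose and 38 fell for Z18fl (median -0.053), 20 and 12 for Z18trunc (median -0.064), and 6 fell for Z18truncZnFmut (median -0.15). For Z18trunc against Z18fl 9 loci fell, and the Z18truncZnFmut against Z18trunc median turned to -0.13. Subfamilies then gave 47 higher and 1 lower for Z18fl, 31 and 0 for Z18trunc, and 0 lower for Z18trunc against Z18fl. MER5B in Z18fl turned to 0.20 and MER117 in Z18trunc to 0.060. Without the count filter, which adds sparse loci, 45 rose and 15 fell for Z18fl (median 1.67), 19 and 0 for Z18trunc (median 1.71), and 1 fell for Z18truncZnFmut (median 1.71). Z18trunc against Z18fl then had 2 loci higher, 4 lower and 0 subfamilies lower, and Z18truncZnFmut against Z18trunc had 2 loci lower (median 1.84).

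With both strands summed, 69 loci rose and 127 fell for Z18fl, 21 rose for Z18trunc (median -0.32), the Z18truncZnFmut median was -0.28, and 10 loci were higher in Z18trunc than in Z18fl. Subfamilies higher were 5 for Z18fl and 2 for Z18trunc, and the difference in the share of element counts for Z18fl turned to 0.059 percentage points. With unique reads, 5 loci rose and 33 fell for Z18trunc (median -0.35), 2 subfamilies rose there, and 0 fell for Z18trunc against Z18fl. The medians were -0.30 for Z18truncZnFmut against Clover and 0.082 against Z18trunc. The difference in exon CPM for Z18fl turned to 9.0, and that in the element-strand share to 0.154 for Z18fl, 0.139 for Z18trunc and -0.015 for Z18trunc against Z18fl. With DESeq2, 49 loci fell for Z18fl, 6 rose and 28 fell for Z18trunc (median -0.37), 0 rose and 2 subfamilies fell for Z18truncZnFmut, and 3 loci were higher and 0 subfamilies lower in Z18trunc than in Z18fl.

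No pairing of libraries by replicate number was seen. Same-numbered deviations correlated between -0.09 and 0.04, and differently numbered ones between -0.05 and 0.09. Counting noise at low counts could hide a weak pairing, so these values do not exclude it. With the replicate block 2 subfamilies rose for Z18trunc, 1 locus rose for Z18truncZnFmut, and 0 subfamilies fell for Z18trunc against Z18fl.

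Leaving out each library in turn gave these ranges. For Z18fl against Clover 44 to 93 loci fell, with medians of -0.42 to -0.29, the low counts without any 1 Z18fl library. For Z18trunc 5 to 16 loci rose and 22 to 57 fell (medians -0.46 to -0.30), and 1 to 5 subfamilies rose and 4 to 8 fell. For Z18truncZnFmut 0 to 3 loci rose and 9 to 15 fell (medians -0.43 to -0.34), and 0 to 1 subfamilies rose and 0 to 4 fell, the subfamily calls all without its replicate 3. Z18trunc against Z18fl had 2 to 6 loci higher and 5 to 15 lower, and 0 to 1 subfamilies higher and 0 to 5 lower, the subfamily calls all without Z18trunc replicate 3. Z18truncZnFmut against Z18trunc had 0 to 1 loci lower (medians -0.0027 to 0.059). The difference in family CPM ranged from -90.2 to 16.6 for Z18trunc against Z18fl and from -126 to 592 for Z18truncZnFmut against Z18trunc, where it was negative without replicate 3. The latter comparison ranged from -62.1 to 182 in intron CPM, from -6.31 to 0.226 points in intron share, from -0.374 to 1.62 points in A or T content, from -0.028 to 0.13 in the log2 ratio to MIR and from -0.0366 to 0.312 points in the share of element counts. That share ranged from -0.0659 to 0.0480 points for Z18fl and from -0.326 to 0.0225 points for Z18truncZnFmut against Clover, and the intronic log2 ratio from -0.043 to 0.019 and from -0.17 to 0.043. Z18trunc against Z18fl ranged from -12.7 to 7.06 in exon CPM, from -0.209 to 0.261 points in A or T content and from -0.0220 to 0.169 points in element-strand share. The element-strand share against Clover ranged from -0.569 to 0.106 points for Z18fl and from -0.513 to 0.162 points for Z18trunc.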
